A study of Mus musculus with 18 samples.

Results

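EpCAM-negative cells of the normal mouse lung were compared with 3 epithelial populations sorted from the same lungs. The comparison held 12 of the 18 libraries of the series, taken by the gate in their labels: 3 libraries of EpCAM-negative cells, labelled non-epithelial, and 9 libraries of EpCAM-positive cells. The airway cells were EpCAM positive and CD104 positive and were split by CD24 into a CD24hi population, labelled as enriched in ciliated cells, and a CD24lo population, labelled as enriched in club cells. The alveolar cells were EpCAM positive and CD104 low. Each of the 4 populations gave 1 library from each of 3 C57BL/6 mice, numbered 4, 5 and 6, with no treatment, and mouse numbers paired the libraries. The study's methods describe its C57BL/6 mice as young adult males. The mouse lung suspensions were stained for CD45 and CD31 as well, and the study's methods identify alveolar cells as negative for both. The sources used here do not state whether cells with either were removed from the EpCAM-negative gate. The other 6 libraries, of tracheal basal and non-basal cells from other mice, did not enter the fit.

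EpCAM is an adhesion molecule of epithelial cells, so that a gate without it holds what surrounds the epithelium. In the lung these are fibroblasts of the airway and vessel sheaths and of the alveolar wall, smooth muscle of airways and vessels, pericytes, mesothelium, endothelium and blood cells. Fibroblasts make the collagens, elastic fibres and proteoglycans of the lung and secrete growth factors such as FGF10, FGF7, HGF and WNT2 that act on epithelial receptors, while the epithelium secretes SHH, which acts on receptors of the mesenchyme.

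The 12 libraries held between 9811503 and 13208897 assigned reads and between 17201 and 18328 genes with a read. Levels are given as RPKM, the reads of a gene scaled to the length of its gene model and to library size, here after TMM scaling of library sizes, and 3 values listed together belong to mice 4, 5 and 6 in that order. Differences are log2 fold changes from a fit across 17648 genes (edgeR quasi-likelihood test with mouse as a block), in which positive values are higher in EpCAM-negative cells, ± is a standard error unless an SD is named, and the fold is set against the mean of the 3 epithelial populations on the log2 scale. A gene is called higher or lower below when its adjusted p was under 0.05 with the same sign against that mean and against each of the 3 populations, and the nearest population is the one with the smallest difference. The median log2 fold change over all genes tested was -0.009, so that a list median can be read against 0. With genes in 5 classes of equal size by gene model length, this median went from -0.25 in the shortest to 0.21 in the longest. Several libraries stood apart from those of the same gate. The CD24hi and CD24lo libraries of mouse 4 held more endothelial and stromal transcripts than those of mice 5 and 6, the alveolar library of mouse 5 held 1202 RPKM of *Lars2* against 51.1 and 53.3 in the other two, and the EpCAM-negative libraries differed in blood transcripts. Gene list counts that leaving out 1 library, the airway libraries of mouse 4 or 1 mouse moved by over 1.5 times are given with and without them. In bulk RNA, fewer cells of a type and less RNA per cell cannot be told apart.

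The labels were first set against the genes of the gates and against *Col1a1* and *Gsn*. *Epcam* (chr17:87635979-87651127 in GRCm38), the sorting antigen, was at 1.64, 1.68 and 1.84 RPKM in EpCAM-negative cells, at 111, 127 and 118 in CD24hi cells, at 81.8, 87.7 and 84.0 in CD24lo cells and at 107, 99.97 and 106 in alveolar cells. It was 58.8-fold lower than the epithelial mean (log2 fold change -5.88 ± 0.12, adjusted p = 9.49e-12), and since the gate was set on this protein the difference describes the sort. Within each mouse the EpCAM-negative library held 1.33% to 1.56% of the *Epcam* level of the highest epithelial library.

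*Col1a1* (chr11:94936224-94953042), a chain of the fibrillar collagen of fibroblasts, was at 1052, 1131 and 1046 RPKM in EpCAM-negative cells. The 3 libraries had a mean of 1076 ± 47.3 RPKM (SD, n = 3). Its values were 12.4, 6.13 and 3.31 RPKM in CD24hi cells, 21.5, 13.2 and 14.04 in CD24lo cells and 46.6, 34.2 and 24.9 in alveolar cells, which makes it 72.1-fold higher in EpCAM-negative cells (log2 fold change 6.17 ± 0.20, adjusted p = 1.43e-10). The groups did not overlap, and in each epithelial gate the library of mouse 4 had the highest value. *Gsn* (chr2:35256359-35307902), an actin-severing protein with a secreted form, was the more abundant of the pair at 14078, 13429 and 13236 RPKM. Its levels were 1142, 875 and 913 RPKM in CD24hi cells, 475, 259 and 265 in CD24lo cells and 805, 569 and 516 in alveolar cells, a 23.7-fold difference (log2 fold change 4.56 ± 0.13, adjusted p = 5.15e-11). The nearest population for *Gsn* was CD24hi (log2 fold change 3.82), and that for *Col1a1* was alveolar (5.02).

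Among the other genes of the sort, *Cd24a* was at 16.1, 14.7 and 14.7 RPKM in EpCAM-negative cells against 776, 1171 and 1286 in CD24hi, 331, 332 and 336 in CD24lo and 38.4, 39.1 and 37.8 in alveolar cells, and was called lower (log2 fold change -3.98 ± 0.17). *Itgb4*, which encodes CD104, was at 0.369, 0.366 and 0.362 RPKM, close to the 0.390, 0.772 and 0.560 RPKM of the CD104-low alveolar cells, and that difference did not pass the threshold (log2 fold change -0.64 ± 0.27, adjusted p = 0.0561). *Ptprc*, which encodes CD45, was at 5.17, 7.41 and 2.04 RPKM in EpCAM-negative cells and from 0.440 to 2.43 in epithelial libraries. *Pecam1*, which encodes CD31, was at 54.9, 45.3 and 37.8 RPKM, beside 51.7, 24.3 and 13.0 in CD24hi, 71.1, 24.7 and 23.2 in CD24lo and 11.8, 22.7 and 14.9 in alveolar cells. EpCAM-negative libraries thus overlapped the airway libraries in *Pecam1*, and the adjusted p was 0.076 against CD24hi, 0.424 against CD24lo and 0.00752 against alveolar cells.

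**Figure D1:**
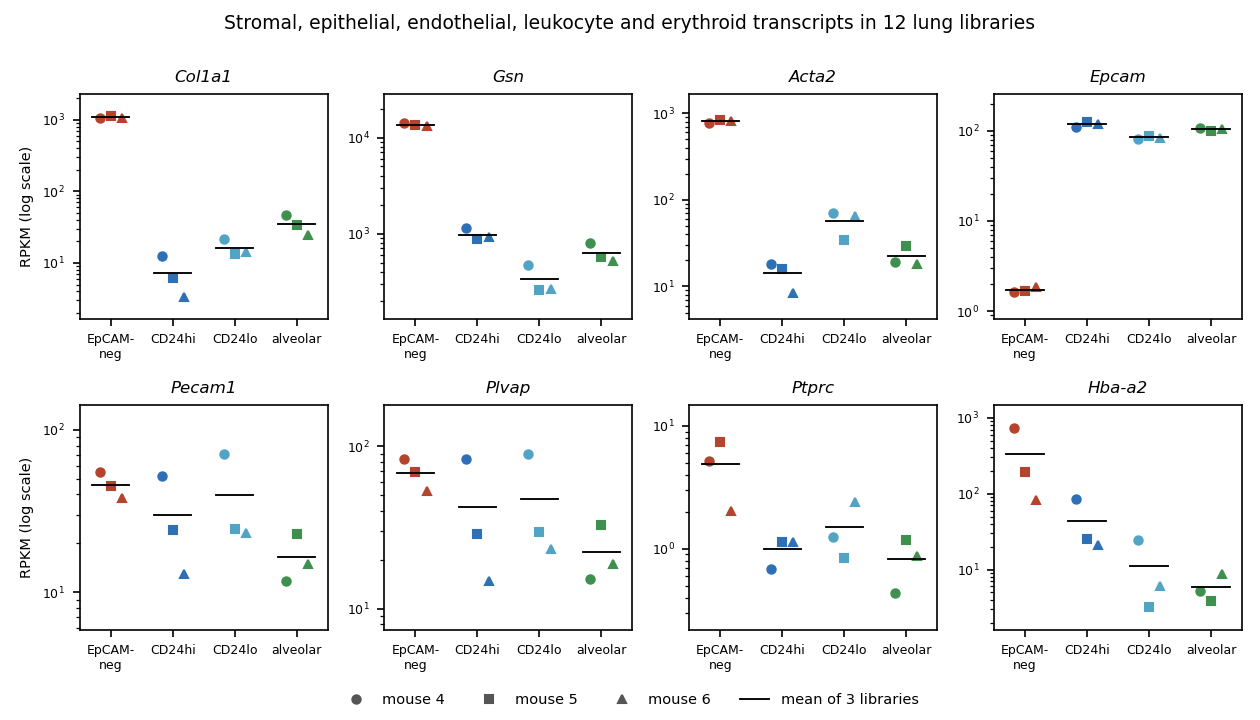
RPKM on a log axis in each of the 12 lung libraries (one point per mouse, colours for populations) of genes that mark fibroblasts (*Col1a1*, *Gsn*), smooth muscle (*Acta2*), epithelium (*Epcam*), endothelium (*Pecam1*, *Plvap*), blood cells (*Ptprc*) and red cells (*Hba-a2*). The EpCAM-negative points lie apart from all epithelial points for *Col1a1*, *Gsn*, *Acta2* and *Epcam*, and overlap the mouse 4 airway points for *Pecam1* and *Plvap*. For *Ptprc* and *Hba-a2* the EpCAM-negative point of mouse 6 lies below the highest epithelial point.

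Across all genes, 6184 (35.0%) were higher in EpCAM-negative cells than the epithelial mean and 5750 (32.6%) were lower. Against the single populations, 6432 (36.4%) were higher and 6161 (34.9%) lower than in CD24hi cells, 5493 (31.1%) higher and 5289 (30.0%) lower than in CD24lo cells, and 5681 (32.2%) higher and 4985 (28.2%) lower than in alveolar cells. The stricter call, the same way against every gate, was met by 3591 higher genes (20.3% of those tested) and 2622 lower genes (14.9%), 6213 (35.2%) in all. Of these, 1615 were higher and 761 lower by a log2 fold change over 2 against their nearest population. Counts of list members below are to be read against 20.3% for higher and 14.9% for lower genes. A further 1690 genes passed in opposite directions against at least 1 pair of populations, and 2370 passed against none. The genes called higher took 49.9%, 50.4% and 52.2% of normalized reads in EpCAM-negative cells and between 8.34% and 11.3% in epithelial libraries. Those called lower took 6.66% to 6.73% in EpCAM-negative cells, 30.4% to 31.9% in CD24hi, 47.3% to 58.5% in CD24lo and 43.5% to 46.7% in alveolar cells. These shares describe the call and are no test of it.

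**Figure D2:**
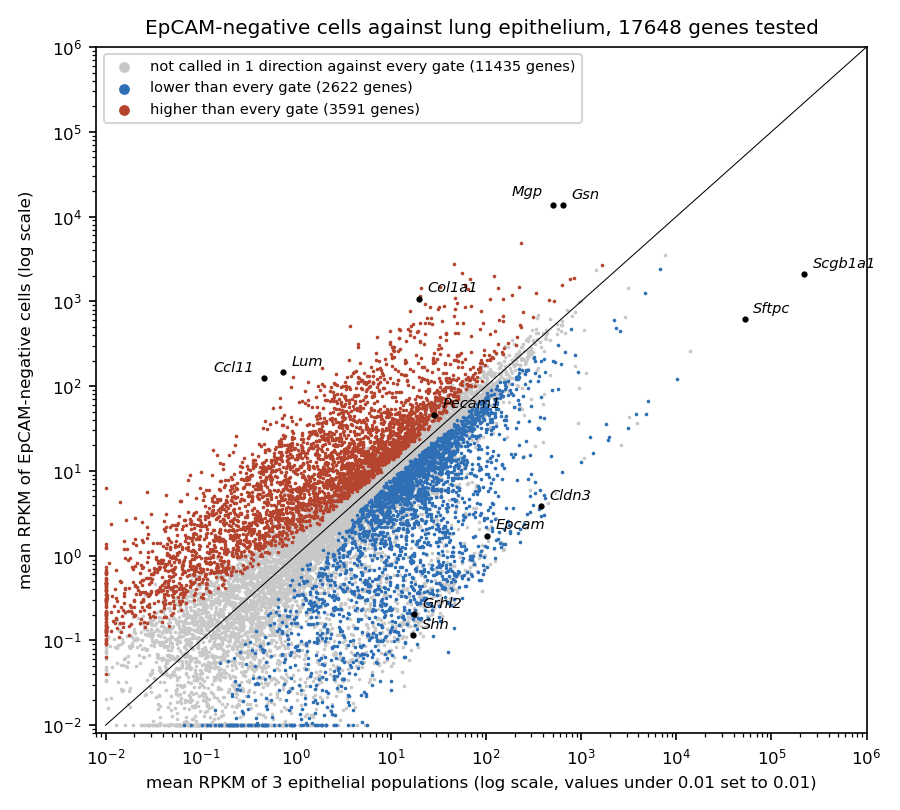
Mean RPKM of the 3 epithelial populations (horizontal, log axis) against mean RPKM of EpCAM-negative cells (vertical, log axis) for the 17648 genes tested, with the 3591 genes called higher and the 2622 called lower than every population in colour. *Gsn* and *Mgp* sit at the top of the higher genes, while *Ccl11* and *Lum* lie farthest from the diagonal among the labelled genes.

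The 15 genes that stood farthest above every epithelial population included several that encode secreted or surface proteins. *Ccl11* (chr11:82057832-82062955), the eosinophil chemokine eotaxin, was at 128, 128 and 113 RPKM in EpCAM-negative cells and from 0.143 to 0.962 in the 9 epithelial libraries (log2 fold change 8.08 ± 0.16, adjusted p = 9.19e-12, nearest 7.63). *Lum* (chr10:97565501-97572703), the collagen-binding proteoglycan lumican, was at 137, 152 and 148 RPKM against 0.320 to 1.11 (log2 fold change 7.71 ± 0.11, adjusted p = 2.12e-12). For *Ccl11* these were 1756, 1706 and 1629 reads in EpCAM-negative libraries and between 2 and 12 reads in epithelial ones. The matrix genes of this set included *Has1*, a hyaluronan synthase, at 117, 141 and 129 RPKM against 0.220 to 1.89 (log2 fold change 7.31 ± 0.13), *Tnfaip6*, which encodes a hyaluronan-binding protein, at 95.5, 121 and 116 RPKM against 0.384 to 2.16 (6.59 ± 0.10), and *Col14a1*, a fibril-associated collagen, at 163, 168 and 162 RPKM against 0.334 to 3.42 (6.69 ± 0.20). *Cilp* (6.37 ± 0.14), *Fndc1* (6.04 ± 0.15) and the carboxypeptidase gene *Cpz* (6.51 ± 0.18) also encode matrix or secreted proteins.

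*Pi16*, known as a marker of adventitial fibroblasts, was the most abundant gene of the set at 526, 536 and 483 RPKM against 1.95 to 7.58 (log2 fold change 7.25 ± 0.14). *Cd248*, the stromal surface protein endosialin, was at 75.1, 75.2 and 67.5 RPKM against 0.270 to 1.41 (6.82 ± 0.16), and *Scara5*, a scavenger receptor that binds ferritin, was at 94.9, 100.3 and 93.5 RPKM against 0.371 to 1.63 (6.95 ± 0.091). Lower in level were *Dio2*, the deiodinase that activates thyroid hormone, at 9.13, 9.96 and 7.96 RPKM (7.03 ± 0.18), *Penk*, the precursor of enkephalins, at 55.2, 58.4 and 50.3 RPKM (6.90 ± 0.19), *Enpp3*, an ectonucleotidase, at 16.2, 16.9 and 16.8 RPKM (6.30 ± 0.13), and *Gpnmb*, a membrane glycoprotein, at 41.4, 35.5 and 31.2 RPKM (6.14 ± 0.13). In all 15 genes every EpCAM-negative library lay above all 9 epithelial libraries, as the rule that named them required.

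The 15 genes that stood farthest below every epithelial population had varied roles, and 3 of them encode junction proteins. *Cldn3*, a tight-junction claudin, was at 2.55, 4.28 and 4.59 RPKM in EpCAM-negative cells and from 242 to 670.1 in epithelial libraries (log2 fold change -6.55 ± 0.23). *Tjp3*, a tight-junction scaffold, was at 0.414, 0.293 and 0.540 RPKM against 25.2 to 52.7 (-6.43 ± 0.16), and *Nectin4*, an adherens-junction protein, was at 0.224, 0.299 and 0.297 RPKM against 17.99 to 24.7 (-6.19 ± 0.18). *Grhl2* (chr15:37232821-37363569), a grainyhead transcription factor that keeps epithelial identity, was at 0.159, 0.212 and 0.241 RPKM against 12.4 to 21.9 (log2 fold change -6.38 ± 0.15, adjusted p = 2.38e-11). *Shh* (chr5:28456840-28467101), the secreted hedgehog ligand, was at 0.147, 0.0302 and 0.167 RPKM against 7.44 to 38.7 (log2 fold change -6.82 ± 0.24, adjusted p = 2.38e-10). *Shh* rested on 5, 1 and 6 reads in the EpCAM-negative libraries and *Grhl2* on 10, 13 and 16, while their lowest epithelial libraries held 201 and 674 reads.

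*Wfdc2*, a secreted airway protein, kept 24.5, 36.1 and 35.5 RPKM in EpCAM-negative cells but reached 1618 to 5201 RPKM in epithelial libraries (log2 fold change -6.47 ± 0.21). The remaining members were *Myo5c*, an unconventional myosin of secretory vesicles, at 0.827, 0.791 and 1.13 RPKM against 60.5 to 81.3 (-6.28 ± 0.15), *Smim22* (-6.97 ± 0.33), the potassium channel gene *Kcnj13* (-6.43 ± 0.17), the carboxylesterase gene *Ces1e* (-6.75 ± 0.24), the ubiquitin ligase gene *Rnf186* (-6.39 ± 0.20), the sulfotransferase gene *Gal3st1* (-6.21 ± 0.20) and *2610528J11Rik* (-6.58 ± 0.21). *Map3k21* had 3 reads in all 3 EpCAM-negative libraries together against 297 in CD24lo cells, a ratio of 126 after scaling (95% exact interval 42.6 to 613), and *Rhbg*, an ammonium transporter gene, had 2 reads against 174 in alveolar cells, a ratio of 102 (27.8 to 850). These intervals cover counting error only.

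Epithelial identity and junction genes were almost all lower. Of 30 listed and tested genes, 29 were lower than every population, where 14.9% of all genes were, and their median log2 fold change was -5.37. *Epcam* is among the 29, and its difference describes the sort. *Cdh1*, which encodes E-cadherin, was at 2.61, 2.78 and 2.61 RPKM against 75.0 to 177 (log2 fold change -5.46 ± 0.12), and the simple keratin genes *Krt8* and *Krt18* were at 5.43, 5.63 and 6.68 RPKM against 129 to 697 (-5.65 ± 0.13) and at 4.15, 5.59 and 6.59 RPKM against 133 to 560.1 (-5.72 ± 0.17). The splicing regulators *Esrp1* (-5.70 ± 0.13) and *Esrp2* (-5.45 ± 0.15) and the membrane proteases *St14* (-5.64 ± 0.15) and *Prss8* (-5.42 ± 0.14) fell in the same range. The smallest falls in the list were those of *Krt7*, at 15.5, 12.3 and 14.1 RPKM against 76.4 to 153 (-2.93 ± 0.13), of the alveolar claudin gene *Cldn18* (-3.09 ± 0.19) and of the tight-junction gene *Ocln* (-3.35 ± 0.14). *Cdhr1*, a cadherin-related gene best known from photoreceptors, was the exception, at 0.383, 0.618 and 0.536 RPKM against 0 to 0.0627 and called higher (4.27 ± 0.44), a call lost without all libraries of mouse 5.

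Sequence upstream of these genes is shown for *Epcam*, as the gene of the sort, and for the 3 list members with at least 3 copies of the E-box CACCTG, a hexamer that ZEB and SNAI repressors recognise, a choice made after the matches were seen. Each run is the 250 bases before the annotated start in the RefSeq annotation of GRCm38.p6, written 5′ to 3′ on the strand of the gene, with CACCTG or its reverse complement CAGGTG in capitals.
Epcam, chr17:87635729-87635978, plus strand: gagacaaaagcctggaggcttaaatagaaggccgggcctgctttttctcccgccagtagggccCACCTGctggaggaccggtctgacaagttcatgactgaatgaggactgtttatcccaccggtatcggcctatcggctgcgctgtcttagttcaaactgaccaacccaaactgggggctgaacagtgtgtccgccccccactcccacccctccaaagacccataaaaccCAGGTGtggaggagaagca
Ap1m2, chr9:21312334-21312583, minus strand: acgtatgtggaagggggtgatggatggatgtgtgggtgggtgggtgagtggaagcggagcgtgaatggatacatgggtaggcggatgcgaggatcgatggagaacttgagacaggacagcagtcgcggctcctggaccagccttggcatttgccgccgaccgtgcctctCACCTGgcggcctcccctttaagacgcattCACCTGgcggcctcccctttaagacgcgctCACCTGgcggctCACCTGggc
Crb3, chr17:57061951-57062200, plus strand: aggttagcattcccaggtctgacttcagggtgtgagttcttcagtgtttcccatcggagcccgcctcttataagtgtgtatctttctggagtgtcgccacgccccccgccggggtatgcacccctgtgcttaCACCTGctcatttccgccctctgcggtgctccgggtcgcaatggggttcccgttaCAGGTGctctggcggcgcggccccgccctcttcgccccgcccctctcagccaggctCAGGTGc
Spint2, chr7:29281978-29282227, minus strand: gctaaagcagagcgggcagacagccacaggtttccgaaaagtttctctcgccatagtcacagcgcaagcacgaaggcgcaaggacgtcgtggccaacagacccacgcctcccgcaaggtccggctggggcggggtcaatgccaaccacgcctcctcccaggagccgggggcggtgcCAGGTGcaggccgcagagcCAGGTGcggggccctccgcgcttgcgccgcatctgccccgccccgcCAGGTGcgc
The matches began 187 and 19 bases before the start in *Epcam*, 81, 51, 21 and 9 in *Ap1m2*, 118, 63 and 7 in *Crb3*, and 74, 55 and 9 in *Spint2*. *Ap1m2* encodes an epithelial clathrin adaptor subunit, at 0.993, 0.603 and 0.771 RPKM against 23.7 to 40.3 (log2 fold change -5.31 ± 0.15), and *Crb3* an apical polarity protein, at 1.49, 1.04 and 1.73 RPKM against 34.5 to 81.7 (-5.15 ± 0.17). *Spint2*, a protease inhibitor gene, was at 29.5, 27.6 and 35.8 RPKM against 334 to 477 (-3.54 ± 0.14).

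The letters CACCTG occurred on either strand of this window in 14 of the 19 epithelial identity genes with a promoter in the table, *Epcam* among them, in 6 of 14 epithelial transcription factor genes, in 1 of 21 mesenchymal transcription factor genes and in 2 of 7 fibroblast marker genes. Other lists did not follow this order. Among epithelial markers they were in 1 of 8 type 2, 3 of 11 type 1, 2 of 7 club and 1 of 9 ciliated cell genes. Elsewhere they were in 7 of 16 integrin and collagen receptor, 5 of 11 retinoid, 1 of 8 smooth muscle and 0 of 8 myofibroblast genes. Over all genes the share was 19.4% of 27025, with 28.1% of the 2004 genes called lower, 15.9% of the 2640 called higher and 18.5% of the 8490 called neither. Median GC content of the promoters was 59.6% for lower and 58.8% for higher genes and 58.4% for genes called neither. It was 52.4% over all promoters, which include those of genes not tested. The same windows were searched for 6 other motifs. The hedgehog effector motif GACCACCCA was in 0.492% of higher, 0.150% of lower and 0.255% of all genes, the grainyhead motif AACCNGTT in 1.82%, 2.05% and 2.00%, the forkhead motif TGTTTAC in 2.84%, 3.49% and 3.54%, the CCAAT box in 37.0%, 39.3% and 37.5%, the SMAD element CAGACA in 18.1%, 16.4% and 19.3%, and the CArG box, which can itself hold the letters CCAAT, in 1.63%, 1.30% and 1.62%. In this order the shares of tested genes called neither were 0.177%, 2.00%, 2.79%, 39.8%, 16.1% and 1.44%. The share of all genes also counts genes that were not tested. For GACCACCCA the matches were in 13 higher and 3 lower genes. A match is a run of letters and not a site known to be bound, and no match says only that the letters are absent from this window.

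Transcription factors divided along the same line. Of 24 epithelial factors, 21 were lower than every epithelial population, where 14.9% of all genes were, and none was higher (median log2 fold change -5.38). *Nkx2-1*, which specifies lung epithelium, was at 2.36, 2.22 and 3.12 RPKM against 62.5 to 198 (log2 fold change -5.28 ± 0.15). The forkhead factors *Foxa1* (-5.67 ± 0.14) and *Foxa2* (-5.38 ± 0.13), the ETS factors *Elf3* (-6.27 ± 0.17) and *Ehf* (-5.91 ± 0.17), the zinc finger genes *Ovol1* (-4.79 ± 0.20) and *Ovol2* (-5.49 ± 0.28) and the Iroquois genes *Irx1*, *Irx2*, *Irx3* and *Irx5* (-4.84 to -5.87) were all lower. *Elf1*, which is not restricted to epithelium, differed least among the lower factors (-0.62 ± 0.092). The 3 that met neither call were *Gata6*, at 16.5, 17.8 and 16.5 RPKM against 12.2 to 27.7, *Etv5*, at 3.22, 2.77 and 2.98 RPKM beside 3.38, 2.84 and 2.59 in CD24hi and 188, 163 and 195 in alveolar cells, and *Trp63*, at 0.738, 0.773 and 0.614 RPKM against 6.63, 11.6 and 8.39 in CD24lo and 0.128, 0.0891 and 0.0815 in alveolar cells.

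Of 35 mesenchymal factors, 33 were higher than every epithelial population, where 20.3% of all genes were, and none was lower (median log2 fold change 4.30). *Tcf21*, required for lung mesenchyme, was at 148, 152 and 191 RPKM against 1.52 to 15.8 (log2 fold change 4.76 ± 0.23). *Tbx4*, a T-box gene of lung mesenchyme, was at 62.6, 65.3 and 77.9 RPKM against 0.731 to 7.50 (4.67 ± 0.19), *Tbx5* at 16.4, 17.7 and 20.4 RPKM against 0.292 to 1.33 (4.58 ± 0.18), and *Tbx2* at 149, 148 and 180.1 RPKM against 3.08 to 20.7 (4.11 ± 0.25). These 4 genes had no overlap between groups, and their highest epithelial values came from mouse 4. *Twist2* (6.68 ± 0.25), *Prrx1* (5.79 ± 0.13), *Prrx2* (5.88 ± 0.23), *Osr1* (5.32 ± 0.16), *Meox2* (5.28 ± 0.17) and *Ebf2* (7.83 ± 0.35), all regulators of mesenchymal development, stood above these in fold. *Foxf1*, a hedgehog-responsive forkhead gene that endothelium also expresses, was at 60.3, 52.1 and 50.7 RPKM against 5.06 to 21.8, a smaller difference (2.58 ± 0.28, adjusted p = 5.39e-06). Its highest epithelial values were 21.8 and 19.4 RPKM in the airway libraries of mouse 4.

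The repressors that recognise CACCTG were higher in EpCAM-negative cells. *Zeb1* was at 23.6, 25.0 and 22.3 RPKM against 1.70 to 7.69 (log2 fold change 2.79 ± 0.14, adjusted p = 4.03e-09) and *Zeb2* at 28.2, 30.3 and 29.7 RPKM against 0.539 to 2.87 (4.42 ± 0.17, adjusted p = 5e-10). *Snai1* was at 27.7, 26.4 and 34.2 RPKM against 0.532 to 3.84 (4.11 ± 0.23), and *Snai2* at 7.79, 7.17 and 6.80 RPKM against 0.229 to 3.57 (3.01 ± 0.15). *Gli3* and *Foxp2* were the 2 factors that met neither call. *Gli3* was at 2.63, 2.72 and 2.73 RPKM beside 1.85, 2.82 and 2.39 in CD24hi cells, and *Foxp2* at 1.49, 1.88 and 1.41 RPKM beside 3.41, 3.75 and 3.17 in alveolar cells.

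Hox genes, which mark position along the body axis, were higher in every case that could be tested. All 16 that were tested of 21 listed were called higher, where 20.3% of all genes were, with log2 fold changes of 3.29 to 5.34 and a median of 4.00. A Hox gene with almost no epithelial reads could enter the test only through the EpCAM-negative libraries, so the count is not free of the filter. *Hoxa5*, required for lung development, was the most abundant at 36.6, 39.2 and 41.2 RPKM against 1.39 to 8.30 (log2 fold change 3.37 ± 0.22, adjusted p = 5.02e-08). *Hoxb5*, another lung Hox gene, was at 14.98, 13.4 and 14.2 RPKM against 0.446 to 1.90 (3.86 ± 0.21). The Hoxc genes were lower in level, with *Hoxc4* at 0.475, 0.488 and 0.675 RPKM and *Hoxc5* at 0.201, 0.148 and 0.136 RPKM.

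**Figure D3:**
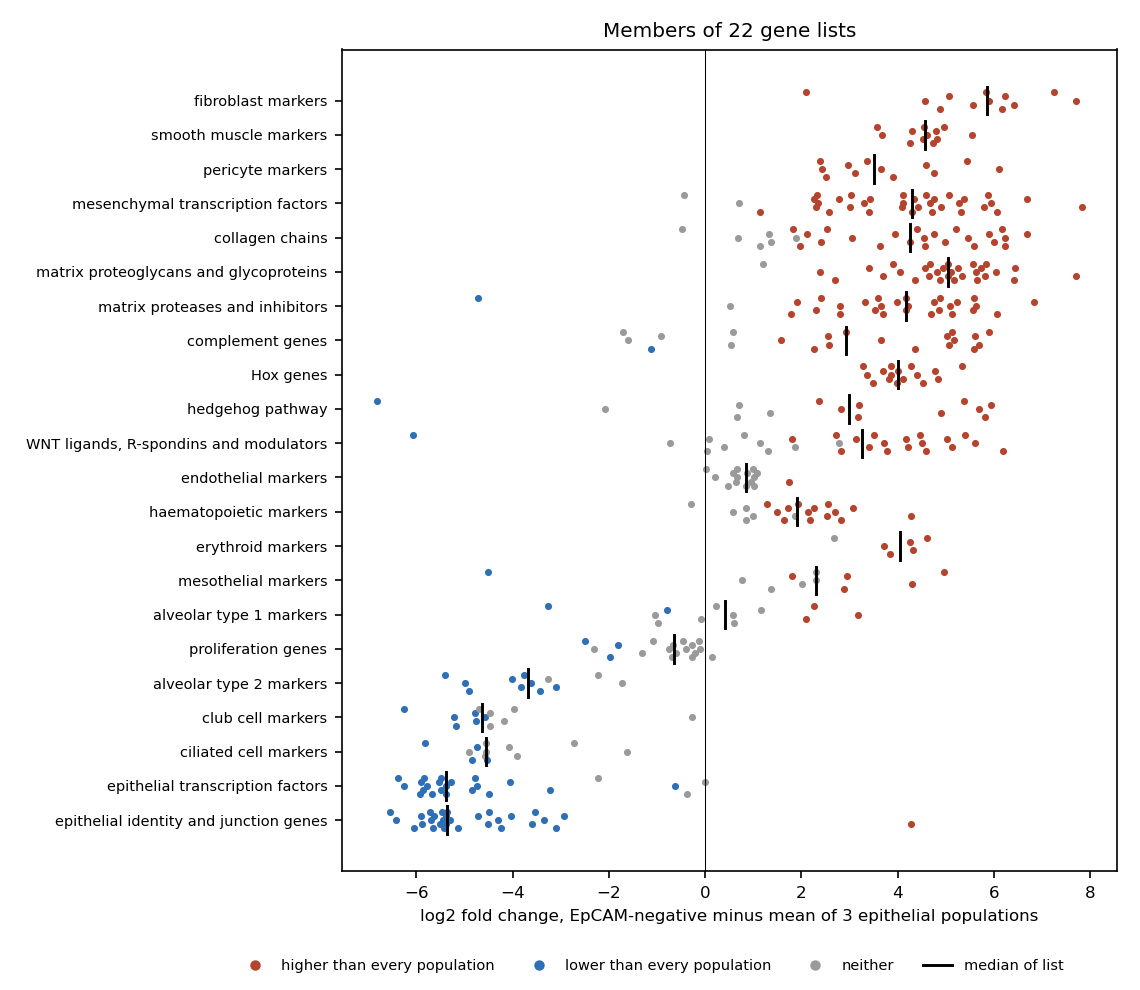
Log2 fold change of EpCAM-negative cells against the mean of the 3 epithelial populations (horizontal) for each tested member of 22 gene lists (rows), coloured by whether the gene was higher or lower than every population or neither, with a bar at the list median. Fibroblast, matrix, mesenchymal factor and Hox lists lie above 0, epithelial lists lie below it, and endothelial markers sit close to it with a median of 0.86.

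Fibroblast markers had the highest median of the 40 lists. All 12 were called higher, where 20.3% of all genes were, with a median log2 fold change of 5.86. *Col1a1* and *Gsn*, against which the labels were first set, are among the 12. The list was also chosen with earlier results of these data known, so the count is no independent test. *Dcn*, the small proteoglycan decorin, was at 2759, 2776 and 2647 RPKM against 14.4 to 117 with a median of 19.8 (log2 fold change 6.42 ± 0.11), with its higher epithelial values in CD24lo cells. *Pdgfra*, the PDGF receptor of fibroblasts, was at 211, 220.2 and 282 RPKM against 1.94 to 24.5 with a median of 6.02 (5.07 ± 0.17, adjusted p = 1.61e-10). *Ly6a*, which encodes the surface antigen Sca-1 and is also found on airway and endothelial cells, had the smallest difference, at 505, 458 and 388 RPKM against 38.8 to 281 with a median of 93.5 (2.09 ± 0.18). The 12 markers summed to 22327 to 23224 RPKM in EpCAM-negative libraries and to 1032 to 1402, 607 to 1005 and 752 to 1139 RPKM in CD24hi, CD24lo and alveolar libraries. In the same order *Gsn* alone was at 13236 to 14078, 875 to 1142, 259 to 475 and 516 to 805 RPKM. It made up most of each sum outside CD24lo cells.

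Of 12 markers of alveolar fibroblasts and lipofibroblasts, 10 were higher, where 20.3% of all genes were (median log2 fold change 4.51). *Inmt*, a methyltransferase abundant in lung, was at 5084, 4399 and 5306 RPKM against 35.1 to 640 with a median of 175 (log2 fold change 4.99 ± 0.26). *Npnt*, the matrix ligand nephronectin, was at 362, 393 and 530.4 RPKM (4.12 ± 0.17), and its receptor subunit *Itga8* at 189, 198 and 256 RPKM against 1.83 to 25.1 with a median of 8.44 (4.84 ± 0.18). In all 3 genes the alveolar libraries were the nearest to EpCAM-negative cells, at 341 to 640 RPKM for *Inmt*, 81.0 to 98.4 for *Npnt* and 17.1 to 25.1 for *Itga8*. *Ces1d*, a carboxylesterase gene, was called lower, at 188, 209 and 297 RPKM against 564 to 1174 (-1.89 ± 0.13), and the lipid droplet gene *Plin2*, at 43.0, 42.0 and 47.4 RPKM against 22.8 to 109, met neither call.

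Contractile genes of smooth muscle were higher in all 12 of 12 cases, where 20.3% of all genes were (median log2 fold change 4.57). *Acta2*, which encodes smooth muscle actin, was at 782, 825 and 807 RPKM against 8.46 to 70.3 with a median of 19.2 (log2 fold change 4.96 ± 0.22, adjusted p = 1.69e-09). *Myh11*, the smooth muscle myosin heavy chain gene, was at 132, 131 and 135 RPKM against 1.59 to 12.3 with a median of 3.89 (4.802 ± 0.24), and *Tagln*, an actin-binding gene, was at 509, 555 and 574 RPKM against 6.44 to 56.4 with a median of 21.9 (4.54 ± 0.25). For the 3 genes the highest epithelial values were those of the CD24lo libraries of mice 4 and 6. *Myocd*, the cofactor that drives this programme, was at 2.02, 2.25 and 2.92 RPKM against 0 to 0.176 (5.55 ± 0.24). Of 10 myofibroblast markers 9 were higher, and only *Lgr6* was not, being at 4.42, 5.28 and 6.45 RPKM in EpCAM-negative cells and at 8.77, 14.3 and 13.3 in CD24lo cells.

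All 12 pericyte markers were called higher, where 20.3% of all genes were, with a median log2 fold change of 3.51. *Pdgfrb*, the PDGF receptor of mural cells, was at 65.2, 67.0 and 70.3 RPKM against 1.06 to 4.66 with a median of 2.38 (log2 fold change 4.76 ± 0.22), and the potassium channel genes of pericytes *Abcc9* (6.11 ± 0.12) and *Kcnj8* (5.44 ± 0.14) differed more. *Cspg4*, the proteoglycan NG2, was at 6.26, 6.73 and 7.86 RPKM (4.59 ± 0.24). *Rgs5*, a classical marker, was low at 1.08, 0.847 and 1.60 RPKM (3.36 ± 0.38). *Higd1b*, *Cox4i2* and *Trpc6* had their highest EpCAM-negative value in mouse 6, at 12.7, 30.2 and 4.63 RPKM, against 5.66, 16.7 and 2.43 in mouse 4.

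Of 29 collagen chains, 23 were higher, *Col1a1* among them, where 20.3% of all genes were. A further 6 met neither call and none was lower (list median log2 fold change 4.26). *Col1a2* was at 1113, 1189 and 1142 RPKM against 3.27 to 46.6 with a median of 17.2 (log2 fold change 6.23 ± 0.21), and *Col3a1*, the chain of type III collagen, at 1418, 1522 and 1496 RPKM against 6.36 to 73.8 with a median of 30.2 (5.89 ± 0.17). As for *Col1a1*, the alveolar libraries held the highest epithelial values and the CD24hi libraries the lowest. The fibril-regulating chains *Col5a1* (5.58 ± 0.14) and *Col5a2* (5.47 ± 0.18) and the microfibril-forming chains of type VI collagen *Col6a1* (4.55 ± 0.16), *Col6a2* (4.98 ± 0.16) and *Col6a3* (5.21 ± 0.19) followed. *Col6a6* was at 1.38, 1.51 and 1.47 RPKM against 0 to 0.0905 (6.24 ± 0.34).

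Chains of basement membrane collagen divided. *Col4a1* was at 193, 208 and 211 RPKM against 89.5, 95.2 and 94.1 in alveolar cells and was called higher (2.54 ± 0.17), while *Col4a3* and *Col4a4*, the chains of mature alveolar basement membrane, met neither call, with *Col4a3* at 6.47, 5.21 and 5.16 RPKM in EpCAM-negative cells and 6.62, 9.70 and 6.82 in alveolar cells. *Col17a1*, the hemidesmosomal collagen, was at 4.94, 4.55 and 5.55 RPKM beside 4.91, 7.65 and 4.94 in CD24lo cells, and *Col8a2* at 4.56, 4.86 and 5.67 RPKM beside 68.0, 64.3 and 72.4 in CD24hi cells. The calls for *Col4a2*, *Col4a6* and *Col23a1* were lost in at least 1 alternative fit.

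Of 26 collagen-processing genes, 20 were higher, where 20.3% of all genes were (median log2 fold change 3.495). *Serpinh1*, the collagen chaperone, was at 408, 423 and 426 RPKM against 32.6 to 94.9 with a median of 40.8 (log2 fold change 3.14 ± 0.10), and the crosslinking enzyme genes *Lox* and *Loxl1* were at 85.8, 94.9 and 109 RPKM against 0.874 to 7.95 (5.13 ± 0.14) and at 286, 287 and 291 RPKM against 1.56 to 26.8 (5.26 ± 0.20). *Adamts2*, the protease that trims procollagen N-termini, was at 200.3, 217 and 199 RPKM against 0.575 to 8.19 (6.23 ± 0.20). The genes of collagen prolyl 4-hydroxylase differed among themselves. The α subunit gene *P4ha3* was called higher, at 5.45, 6.73 and 6.52 RPKM against 0.0729 to 2.85 (3.41 ± 0.25), whereas *P4ha1*, at 25.3, 28.9 and 31.0 RPKM against 8.98 to 54.9, *P4ha2*, at 13.9, 15.9 and 14.95 RPKM against 10.9 to 30.7, and the β subunit gene *P4hb*, at 176, 172 and 177 RPKM against 119 to 204, met neither call. *Bmp1*, the procollagen C-proteinase, was at 52.1, 57.0 and 49.8 RPKM beside 62.3, 68.2 and 56.9 in alveolar cells and met neither call, whereas its enhancer genes *Pcolce* (4.19 ± 0.11) and *Pcolce2* (5.08 ± 0.24) were called higher.

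Elastic fibre genes were higher in 16 of 18 cases, where 20.3% of all genes were (median log2 fold change 4.61). *Eln*, which encodes tropoelastin, was at 855, 902 and 909.7 RPKM against 5.85 to 72.9 with a median of 35.7 (log2 fold change 4.97 ± 0.23). *Fbn1*, the main fibrillin, was at 139.5, 150.2 and 147 RPKM against 0.815 to 9.22 with a median of 3.71 (5.54 ± 0.15), and *Ltbp4*, needed for elastic fibre assembly in lung, at 821, 857 and 887 RPKM against 5.44 to 63.7 with a median of 30.2 (5.05 ± 0.23). *Mfap4* was the most abundant member at 1349, 1362 and 1462 RPKM (4.92 ± 0.28). The 2 without a call were *Fbn2*, at 0.0674, 0.0693 and 0.0355 RPKM in EpCAM-negative cells and at 0.419, 0.652 and 0.621 RPKM in alveolar cells, and *Ltbp3*, at 94.0, 97.1 and 97.0 RPKM beside 87.0, 85.0 and 86.9 in alveolar cells.

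Matrix proteoglycans and glycoproteins were higher in 29 of 30 cases, where 20.3% of all genes were (median log2 fold change 5.04). *Mgp*, which encodes matrix Gla protein, an inhibitor of calcification, was at 13966, 13986 and 13318 RPKM against 111 to 1144 with a median of 341 (log2 fold change 5.11 ± 0.18), a level like that of *Gsn*. *Bgn*, which encodes biglycan, was at 1811, 1824 and 1876 RPKM (5.18 ± 0.21), *Sparcl1* at 1514, 1544 and 1598 RPKM (5.05 ± 0.16), and *Fn1*, which encodes fibronectin, at 217, 272 and 294 RPKM (4.81 ± 0.16). *Thbs3* alone met neither call, at 59.1, 65.6 and 60.1 RPKM beside 63.6, 57.7 and 60.5 in alveolar cells.

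Basement membrane genes differed among themselves, with 13 of 20 higher and 4 lower, where 20.3% and 14.9% of all genes were. The laminin α chains of mesenchyme and muscle were higher, *Lama2* at 83.6, 86.8 and 87.1 RPKM against 0.482 to 4.56 with a median of 2.54 (log2 fold change 5.46 ± 0.14) and *Lama4* at 108, 105 and 113 RPKM against 3.30 to 7.95 with a median of 5.45 (4.42 ± 0.12). The α chain of mature epithelial basement membrane, *Lama5*, was lower, at 11.8, 11.0 and 10.9 RPKM against 30.9 to 59.4 with a median of 38.1 (-1.77 ± 0.11, adjusted p = 3.13e-08). The β and γ chains shared by many laminins, *Lamb1* (4.16 ± 0.12), *Lamb2* (2.06 ± 0.10) and *Lamc1* (3.63 ± 0.087), were higher, as was *Lamc3*, at 54.8, 54.3 and 55.2 RPKM against 0.350 to 4.54 (5.22 ± 0.14). The epithelial β chain *Lamb3* was lower, at 3.29, 2.39 and 2.66 RPKM against 3.87 to 87.2 with a median of 15.6 (-2.70 ± 0.15), while the epithelial α chain *Lama3* met neither call, at 2.05, 1.72 and 1.89 RPKM beside 1.97, 1.12 and 1.02 in CD24lo cells. *Frem2*, a protein of the epithelial basement membrane, was lower (-3.57 ± 0.21) and its partners *Fras1* (2.33 ± 0.19) and *Frem1* (2.23 ± 0.16) were higher. The linker genes *Nid1* (4.92 ± 0.15) and *Hspg2* (4.16 ± 0.14) were higher.

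**Figure D4:**
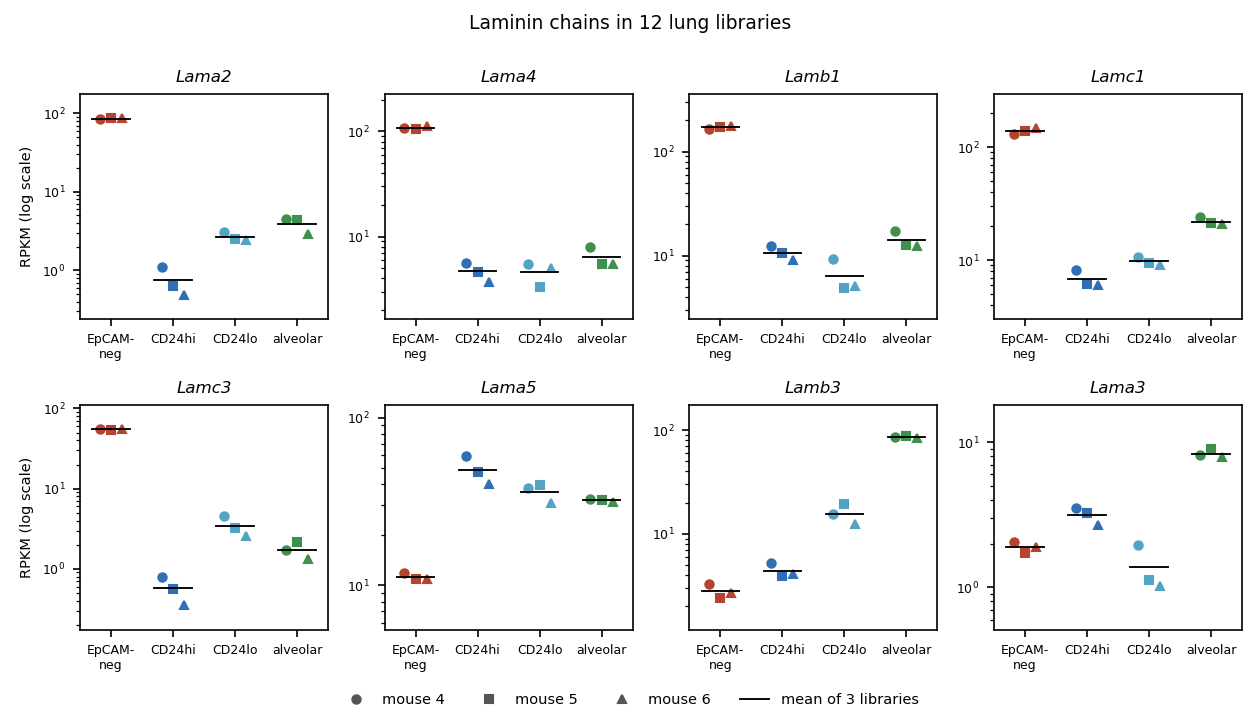
RPKM on a log axis of 8 laminin chain genes in each of the 12 lung libraries, one point per mouse. *Lama2*, *Lama4*, *Lamb1*, *Lamc1* and *Lamc3* are higher in EpCAM-negative cells than in every epithelial library, *Lama5* and *Lamb3* are lower than in every one, and *Lama3* overlaps CD24lo cells.

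Of 20 integrin and collagen receptor genes, 10 were higher, where 20.3% of all genes were, and 3 were lower, a share near the 14.9% of all genes. Among the integrins *Itga8* differed most, followed by *Itgb8* (4.36 ± 0.22) and *Itgb5*, at 139, 130.4 and 138 RPKM against 9.55 to 20.3 (3.33 ± 0.089). *Itgb1*, the partner of most matrix-binding α chains, was at 220.4, 232 and 253 RPKM against 66.7 to 136 (1.35 ± 0.086). The laminin-binding chain genes *Itga3* (-1.36 ± 0.11) and *Itga6* (-0.93 ± 0.094) and the epithelial chain gene *Itgb6* (-1.53 ± 0.17) were lower. The discoidin domain receptors for collagen separated, with *Ddr2* at 78.1, 81.8 and 80.5 RPKM against 0.676 to 4.97 (5.11 ± 0.17) and *Ddr1* at 17.8, 16.9 and 20.4 RPKM, below CD24hi cells (132, 107 and 107 RPKM) and above alveolar cells (9.53, 9.22 and 8.79 RPKM).

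Matrix proteases and their inhibitors were higher in 27 of 29 cases, where 20.3% of all genes were (median log2 fold change 4.17). *Mmp3*, which encodes stromelysin, was at 347, 317 and 290.1 RPKM against 0.682 to 14.9 with a median of 2.06 (log2 fold change 6.84 ± 0.18, adjusted p = 3.52e-11), and *Mmp2*, a gelatinase gene, at 519.6, 540.3 and 541 RPKM against 4.34 to 34.2 with a median of 15 (5.23 ± 0.15). The aggrecanase genes *Adamts4* (6.06 ± 0.23) and *Adamts5* (2.41 ± 0.092) were both higher. The inhibitor genes *Timp2* and *Timp3* were the most abundant inhibitors after *Serping1*, at 809.6, 808 and 828 RPKM (4.22 ± 0.12) and at 915, 847 and 901 RPKM (3.69 ± 0.10). *Mmp15*, a membrane-bound protease gene, was the single lower member, at 4.14, 4.20 and 3.79 RPKM against 53.4 to 169.9 with a median of 124 (-4.72 ± 0.12), and *Mmp28* met neither call.

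Hedgehog genes included 1 ligand that was lower in EpCAM-negative cells and receptors and targets that were higher. Besides *Shh*, 9 of 14 genes were higher, where 20.3% of all genes were, and none other was lower. The receptor gene *Ptch1*, itself a target of the pathway, was at 55.0, 54.3 and 55.3 RPKM against 4.89 to 7.45 with a median of 6.28 (log2 fold change 3.17 ± 0.062, adjusted p = 9.49e-12). The transcriptional effector and target *Gli1* was at 45.9, 45.2 and 37.6 RPKM against 0 to 1.57 with a median of 1.13 (5.93 ± 0.25, adjusted p = 8.87e-10), and the ligand-binding antagonist gene *Hhip* at 55.5, 57.4 and 65.0 RPKM against 0.372 to 2.62 with a median of 1.25 (5.81 ± 0.12, adjusted p = 1.1e-11). In these 3 genes the EpCAM-negative libraries did not overlap the epithelial ones. The co-receptor genes *Gas1* (5.68 ± 0.18), *Boc* (3.20 ± 0.10) and *Cdon* (2.83 ± 0.10), the signal transducer gene *Smo* (2.36 ± 0.087) and *Gli2* (4.90 ± 0.15) were also called higher. *Shh* itself was highest in CD24lo cells at 29.2, 35.6 and 38.7 RPKM, beside 10.3, 9.23 and 9.39 in CD24hi and 7.48, 7.45 and 7.44 in alveolar cells. *Ihh*, *Dhh*, *Gli3* and *Sufu* met neither call.

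Among FGF genes, 8 of 14 were higher and 2 lower, where 20.3% and 14.9% of all genes were (median log2 fold change 2.61). *Fgf10*, the mesenchymal ligand needed for lung branching, was at 20.6, 21.2 and 21.3 RPKM against 0.118 to 2.20 with a median of 0.468 (log2 fold change 5.03 ± 0.16, adjusted p = 1.38e-10), and *Fgf7*, the keratinocyte growth factor gene, at 46.9, 49.7 and 49.0 RPKM against 1.06 to 4.48 with a median of 1.98 (4.52 ± 0.14, adjusted p = 1.12e-10). Their receptor gene *Fgfr2* was lower, at 10.2, 9.22 and 11.4 RPKM against 21.3, 20.5 and 21.5 in CD24hi, 47.9, 62.8 and 54.0 in CD24lo and 187, 173 and 175 in alveolar cells (-2.53 ± 0.12, adjusted p = 2.65e-09). *Fgfr1* (3.34 ± 0.10) and *Fgfr4*, at 24.7, 26.0 and 39.4 RPKM against 0.244 to 4.65 (4.65 ± 0.29), were higher. *Fgf1*, unlike *Fgf2* (4.52 ± 0.24), was lower, at 9.39, 9.45 and 9.15 RPKM against 44.1 to 65.3 (-2.54 ± 0.084). The gene-level values do not separate the receptor's splice forms.

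*Hgf* and its receptor gene differed in opposite directions, as *Fgf10* and *Fgfr2* did. *Hgf* was at 18.3, 18.4 and 21.2 RPKM against 0.418 to 2.28 with a median of 1.22 (log2 fold change 4.20 ± 0.18, adjusted p = 1.15e-09), and its receptor gene *Met* was at 1.34, 1.19 and 1.77 RPKM against 4.61, 6.32 and 7.30 in CD24hi, 20.1, 30.4 and 31.6 in CD24lo and 54.3, 53.9 and 61.3 in alveolar cells (-3.87 ± 0.15, adjusted p = 5.02e-10). The PDGF ligand genes differed among themselves, and both receptor genes were higher as given above. *Pdgfd* was called higher, at 16.1, 17.0 and 17.4 RPKM against 0.660 to 2.16 (3.87 ± 0.16). *Pdgfa* was called lower, at 18.8, 20.0 and 19.4 RPKM against 25.0 to 129.6 (-1.30 ± 0.13), a call lost with library size alone as scaling and without the libraries of mouse 5. *Pdgfb* (log2 fold change -0.34 ± 0.18) and *Pdgfc*, at 1.74, 2.14 and 2.01 RPKM against 0.168 to 2.02, met neither call. *Igf1* was at 22.2, 23.0 and 21.6 RPKM against 0.138 to 1.497 (5.52 ± 0.11), and its binding protein gene *Igfbp4* at 781, 773 and 741 RPKM against 4.86 to 32.6 (5.76 ± 0.23). *Igfbp5* met neither call, at 168, 180.4 and 172 RPKM beside 226, 227 and 246 in CD24hi cells. The lymphangiogenic ligand genes *Vegfc* (2.51 ± 0.26) and *Vegfd* (3.60 ± 0.14) were higher, whereas *Vegfa* met neither call, at 84.8, 70.1 and 79.1 RPKM beside 81.3, 93.3 and 74.1 in CD24lo cells. In the list of 25 such genes 13 were higher and 2 lower, where 20.3% and 14.9% of all genes were. Only 1 was lower without all libraries of mouse 5 or with library size alone as scaling.

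**Figure D5:**
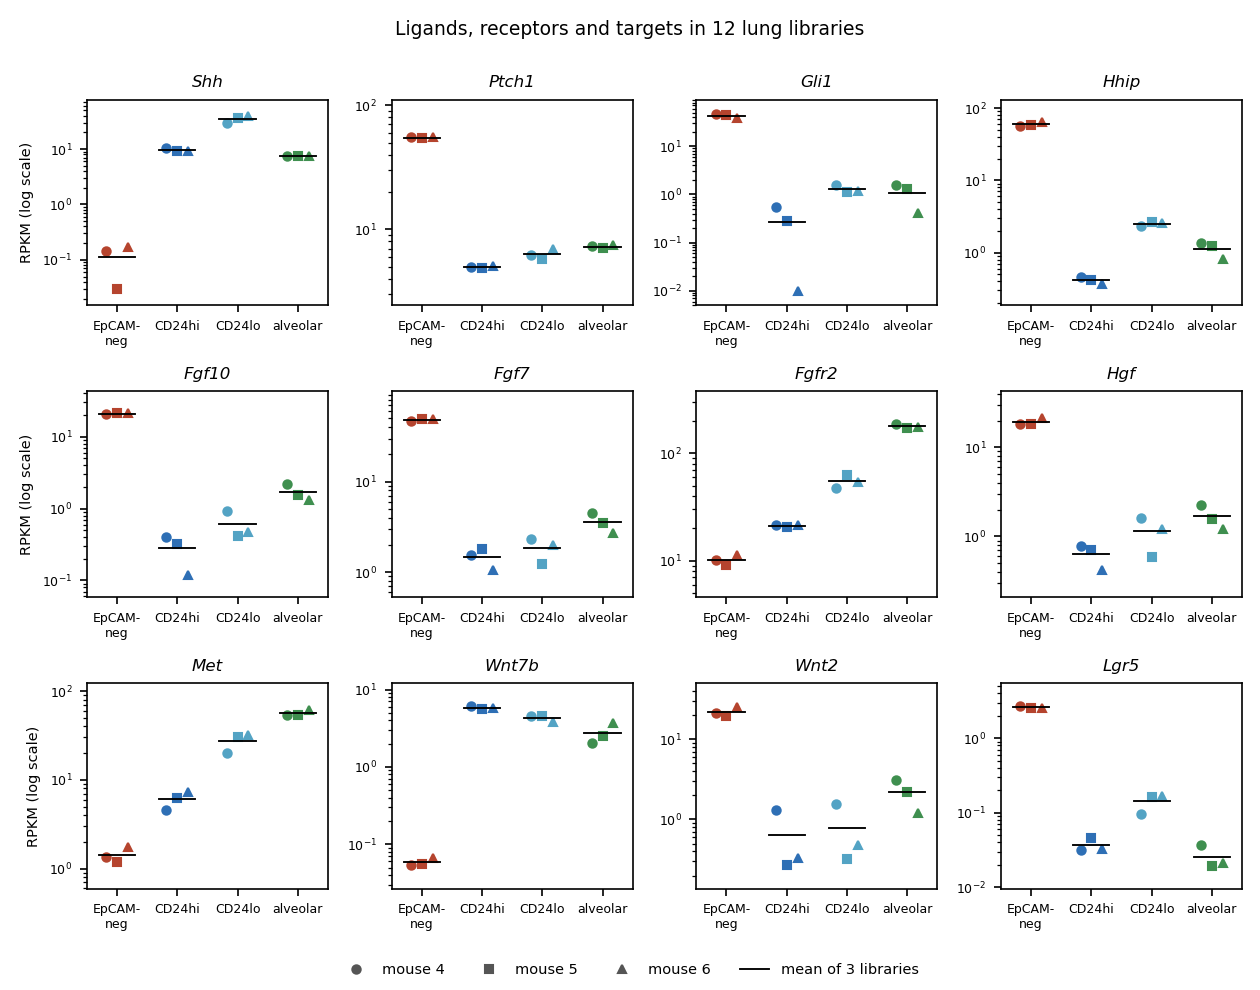
RPKM on a log axis of ligand and receptor genes (*Shh*, *Ptch1*, *Gli1*, *Hhip*, *Fgf10*, *Fgf7*, *Fgfr2*, *Hgf*, *Met*, *Wnt7b*, *Wnt2*, *Lgr5*) in each of the 12 lung libraries, one point per mouse. *Shh*, *Fgfr2*, *Met* and *Wnt7b* are lower in EpCAM-negative cells than in every epithelial library, and the other 8 genes are higher than in every one.

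WNT genes were also divided by ligand. Of 28 genes, 18 were higher and 1 was lower, where 20.3% and 14.9% of all genes were (median log2 fold change 3.27). *Wnt2*, a mesenchymal ligand of the lung, was at 21.0, 19.5 and 25.0 RPKM against 0.274 to 3.09 with a median of 1.21 (log2 fold change 4.52 ± 0.28, adjusted p = 2.73e-08), and *Wnt7b*, an epithelial ligand, was at 0.0533, 0.0548 and 0.0674 RPKM against 2.07 to 6.03 with a median of 4.49 (-6.07 ± 0.29, adjusted p = 2.82e-09). *Wnt2b* (4.59 ± 0.20), *Wnt9a* (3.41 ± 0.10), *Wnt5b* (3.51 ± 0.14) and *Wnt5a*, at 18.3, 18.6 and 18.7 RPKM beside 6.61, 7.27 and 9.10 in CD24hi cells (2.81 ± 0.10), were higher. *Lgr5*, an R-spondin receptor gene, was at 2.73, 2.55 and 2.57 RPKM against 0.0191 to 0.167 (5.61 ± 0.19), and *Rspo2*, which encodes one of its ligands, at 0.939, 1.04 and 1.07 RPKM against 0 to 0.283 (5.39 ± 0.55). *Rspo2* and the antagonist gene *Frzb* needed the EpCAM-negative libraries to pass the CPM filter. The count of 18 is thus partly set by the filter. The secreted antagonist genes *Sfrp1* (4.47 ± 0.11), *Sfrp2* (4.21 ± 0.28), *Sfrp4* (6.19 ± 0.19), *Frzb* (5.03 ± 0.51) and *Dkk2* (3.77 ± 0.23) and the related gene *Dkk3* (5.13 ± 0.14) were higher. *Wif1*, by contrast, was at 12.6, 11.1 and 9.56 RPKM beside 52.1, 64.5 and 67.2 in CD24hi cells. *Axin2*, a general target of the pathway, was at 13.5, 13.5 and 16.3 RPKM beside 11.4, 9.52 and 11.2 in alveolar cells and 1.32, 0.714 and 0.595 in CD24hi cells, and met neither call.

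In the BMP and TGF-β list 20 of 24 tested genes were higher, where 20.3% of all genes were, and none was lower (median log2 fold change 2.68). *Nog*, 1 of the 20, needed the EpCAM-negative libraries to pass the CPM filter. *Tgfb3*, a TGF-β ligand gene, was at 103, 95.3 and 90.6 RPKM against 1.07 to 15.5 (log2 fold change 4.31 ± 0.11), while *Tgfb1* met neither call, at 13.8, 15.2 and 12.7 RPKM beside 11.7, 12.3 and 13.5 in alveolar cells. *Bmp5* was at 87.2, 90.2 and 100.3 RPKM against 9.63 to 40.7 (2.03 ± 0.11). The antagonist genes *Chrdl1* (5.56 ± 0.11) and *Fst* (5.80 ± 0.29) differed more than these ligands. *Bmp2* was at 5.61, 4.88 and 5.03 RPKM beside 11.9, 12.4 and 16.6 in alveolar cells, and *Bmpr1b* was at 0.265, 0.438 and 0.558 RPKM beside 9.99, 18.5 and 18.3 in CD24lo cells. The receptor genes *Tgfbr2*, at 183, 182 and 191 RPKM against 23.4 to 43.8 (2.36 ± 0.073), and *Tgfbr3* (3.56 ± 0.13) were higher.

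Of 15 retinoid genes, 8 were higher and 1 was lower, where 20.3% and 14.9% of all genes were. Retinoic acid is made by aldehyde dehydrogenases, and *Aldh1a2* (4.96 ± 0.20) and *Aldh1a3*, at 8.12, 9.82 and 9.17 RPKM against 0.0282 to 0.298 (log2 fold change 6.15 ± 0.22), were higher. *Aldh1a1* lay between the populations, at 403, 417 and 544 RPKM beside 1599, 2104 and 2323 in CD24lo and 79.9, 68.0 and 62.9 in alveolar cells. *Lrat*, which esterifies retinol for storage, was at 51.2, 46.1 and 56.4 RPKM against 1.26 to 6.90 (4.15 ± 0.24). The nuclear receptor gene *Rarg* was higher (1.09 ± 0.10), whereas *Rarb* was at 2.06, 1.83 and 1.82 RPKM beside 19.4, 25.7 and 23.1 in CD24lo cells and *Dhrs3*, a retinal reductase gene, was lower (-1.44 ± 0.11).

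Axon guidance genes were higher in 15 of 27 cases and lower in 1, where 20.3% and 14.9% of all genes were. *Slit3*, a secreted repellent, was at 137, 138 and 149.9 RPKM against 0.784 to 9.81 (log2 fold change 5.59 ± 0.20), and *Slit2* (3.58 ± 0.13) and the receptor genes *Robo1* (2.84 ± 0.088) and *Robo2* (4.36 ± 0.14) were higher with it. *Ntn1*, which encodes netrin-1, was at 66.2, 63.9 and 59.6 RPKM against 1.57 to 8.08 (4.04 ± 0.19), and its receptor gene *Unc5c* was higher (5.09 ± 0.14). The semaphorins differed among themselves, with *Sema3d* higher (5.67 ± 0.13) and *Sema3e* in neither class, at 2.33, 2.00 and 2.11 RPKM beside 24.1, 39.8 and 41.8 in CD24hi cells. *Efna1* was the lower member (-1.24 ± 0.092).

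Of 17 imprinted growth genes tested, 12 were higher and 1 was lower, where 20.3% and 14.9% of all genes were (median log2 fold change 3.27). The noncoding transcripts of 1 imprinted cluster, *Meg3*, at 10.4, 11.0 and 7.68 RPKM against 0.149 to 0.740 (log2 fold change 4.49 ± 0.13), *Rian* (4.45 ± 0.12) and *Mirg* (5.02 ± 0.49), were higher together. *Igf2* was at 14.4, 13.3 and 11.7 RPKM against 0.479 to 2.51 (3.404 ± 0.13), and *Ndn* at 44.6, 42.2 and 42.3 RPKM against 1.36 to 4.09 (3.88 ± 0.11). *Cdkn1c*, a cell cycle inhibitor gene, was at 21.9, 21.3 and 25.7 RPKM beside 159, 159 and 169 in CD24hi and 6.69, 5.65 and 6.71 in alveolar cells. *Plagl1* was lower (-1.10 ± 0.14), a call lost without all libraries of mouse 5 or of mouse 6 and with library size alone as scaling. Only 7 of the 17 were called higher without the EpCAM-negative library of mouse 6 or without all libraries of mouse 6.

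Chemokine and cytokine genes were higher in 14 of 23 tested cases and lower in 4, where 20.3% and 14.9% of all genes were, and the lower count was 2 without all libraries of mouse 6. Besides *Ccl11*, the monocyte chemokine genes *Ccl2*, at 29.2, 35.9 and 33.9 RPKM against 0.180 to 1.12 (log2 fold change 5.39 ± 0.20), *Ccl7* (6.99 ± 0.28) and *Ccl8* (6.16 ± 0.37) were higher. *Ccl8* and *Cxcl13*, another of the higher genes, needed the EpCAM-negative libraries to pass the CPM filter. *Cxcl12*, which retains leukocytes in tissue, was at 62.3, 57.9 and 53.2 RPKM against 1.78 to 8.25 (3.97 ± 0.21). *Il6*, an inflammatory cytokine gene, was at 339, 389 and 369.6 RPKM against 1.70, 2.93 and 1.91 in CD24hi, 8.29, 13.5 and 12.02 in CD24lo and 19.8, 25.1 and 23.9 in alveolar cells (5.48 ± 0.091, adjusted p = 4e-12), and *Cxcl1*, a neutrophil chemokine gene, at 287, 336 and 320.3 RPKM against 4.83 to 37.2 (4.15 ± 0.11). *Tslp*, often called an epithelial cytokine, was at 17.0, 17.3 and 17.4 RPKM against 0.288 to 1.42 (4.53 ± 0.19). *Il33*, another such cytokine, was between the populations at 33.8, 36.2 and 31.3 RPKM, with 175, 158 and 183 in alveolar cells and 0.765, 0.751 and 1.03 in CD24hi cells. *Cxcl15*, an epithelial chemokine of the lung, was lower, at 21.0, 22.0 and 32.0 RPKM against 5538, 4813 and 5347 in alveolar cells (-4.66 ± 0.16), as were *Ccl20* (-3.99 ± 0.62), *Cxcl5* (-3.27 ± 0.28) and *Cx3cl1* (-1.02 ± 0.13).

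Of 21 complement genes, 15 were higher and 1 was lower, where 20.3% and 14.9% of all genes were (median log2 fold change 2.93). *C3*, on which all routes of activation meet, was at 1051, 1076 and 1076 RPKM against 23.8 to 209.5 with a median of 116 (log2 fold change 3.65 ± 0.13). The protease genes of the classical route, *C1ra*, at 199, 203 and 204 RPKM against 1.34 to 11.3 (5.13 ± 0.14), and *C1s1*, at 459.8, 483 and 489 RPKM against 2.50 to 23.6 (5.62 ± 0.15), and *C4b* (5.90 ± 0.18) were higher, and so was the regulator gene *Serping1*, at 2171, 2128 and 2191 RPKM against 13.4 to 125 (5.60 ± 0.18). Of the late components, *C7* was at 813, 897 and 859 RPKM against 4.20 to 66.8 with a median of 11.9 (5.70 ± 0.19), whereas *C6* was at 5.80, 5.91 and 6.36 RPKM beside 75.0, 74.3 and 75.5 in alveolar cells and met neither call. The C1q chain genes, products of macrophages, were low, with *C1qa* at 3.26, 5.37 and 1.31 RPKM, the lowest in mouse 6 as for the blood cell genes below. *Clu* was the lower member (-1.12 ± 0.10), and 2 were lower without the airway libraries of mouse 4.

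Of 12 alveolar type 2 markers 9 were lower than every gate, where 14.9% of all genes were (median log2 fold change -3.69). *Sftpc*, which encodes surfactant protein C, was at 542, 483 and 838 RPKM against 146562, 146473 and 164830 in alveolar cells and 1789, 804 and 835 in CD24hi cells, so that within each mouse EpCAM-negative cells held 0.330% to 0.509% of the alveolar level. Its call against every gate (log2 fold change -3.82 ± 0.30 against the mean and -0.83 against CD24hi) was lost in at least 1 alternative fit, as were those of *Lamp3* and *Napsa*. Of 12 club cell markers 6 were lower, where 14.9% of all genes were. *Scgb1a1*, the club cell secretoglobin, was at 1475, 2380 and 2441 RPKM against 461463, 643267 and 651335 in CD24lo cells, 0.320% to 0.375% of that level within mice, and against 3599, 4566 and 3581 in alveolar cells. *Cbr2*, a carbonyl reductase gene, was lower at 92.0, 131 and 140.4 RPKM against 4989 to 18142 (-6.27 ± 0.23).

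Of 12 ciliated cell markers only 4 were lower than every gate, where 14.9% of all genes were, with a median log2 fold change of -4.56. *Foxj1*, the ciliogenesis factor, was at 1.25, 2.41 and 2.45 RPKM against 682, 578 and 574 in CD24hi and 4.74, 4.39 and 3.52 in alveolar cells. The count was 8 without the airway libraries of mouse 4 or without its CD24lo library alone, and 7 with DESeq2. It was 2 without the EpCAM-negative or the CD24hi library of mouse 4, without the alveolar library of mouse 5, without all libraries of mouse 5, and with library size alone as scaling.

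Of 12 alveolar type 1 markers, 3 were higher and 2 lower (median log2 fold change 0.41), shares near the 20.3% and 14.9% of all genes. The lower count was 1 without the EpCAM-negative or the alveolar library of mouse 5 or of mouse 6, without all libraries of either mouse, with library size alone as scaling and against a fold of 1.2. *Cav1*, the caveolin gene that endothelium and fibroblasts also express, was at 212, 197 and 188 RPKM against 26.6 to 121 with a median of 47.0 (log2 fold change 2.09 ± 0.19), *Spock2*, a matrix proteoglycan gene, at 21.9, 21.8 and 24.7 RPKM against 1.59 to 3.62 (3.18 ± 0.14), and *Pdpn*, which encodes podoplanin, at 53.9, 49.0 and 48.2 RPKM against 36.0, 43.7 and 36.9 in CD24lo and 6.37, 8.23 and 4.69 in alveolar cells (2.26 ± 0.12). *Aqp5*, a water channel gene, was lower, at 15.4, 13.6 and 14.3 RPKM against 357, 331 and 349 in alveolar cells (-3.26 ± 0.17). *Ager*, the most used type 1 marker, was at 161, 118 and 129 RPKM, beside 1109, 1109 and 1122 in alveolar, 232, 217 and 167 in CD24lo and 142, 65.8 and 57.5 in CD24hi cells, and met neither call.

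Of 15 endothelial markers, only *Tek*, which encodes the angiopoietin receptor, was called higher, below the 20.3% of all genes, and the median log2 fold change was 0.86. *Tek* was at 34.1, 30.0 and 25.8 RPKM against 13.7, 8.29 and 5.20 in CD24hi, 23.6, 8.54 and 8.74 in CD24lo and 4.14, 8.54 and 6.38 in alveolar cells (1.74 ± 0.26, adjusted p = 9.07e-05). *Cdh5*, the endothelial cadherin gene, was at 50.4, 39.6 and 31.5 RPKM beside 48.6, 19.1 and 15.9 in CD24lo cells, and *Plvap*, a gene of fenestrated endothelium, at 82.8, 69.5 and 53.1 RPKM beside 83.0, 28.7 and 14.9 in CD24hi cells. The EpCAM-negative library of mouse 4 had the highest value of its group for most of the list, and the CD24lo library of mouse 4 reached or passed the lowest EpCAM-negative value for every listed gene but *Tek*. The 15 markers summed to 332 to 549 RPKM in EpCAM-negative, 121 to 491 in CD24hi, 225 to 624 in CD24lo and 193 to 294 in alveolar libraries. Without the airway libraries of mouse 4 (an alternative added after the data were seen) 8 of the 15 were called higher, without all libraries of mouse 4 there were 12, and without the CD24lo or the alveolar library of mouse 4 there were 2 and 4. *Tek* lost its call, leaving none, without the CD24lo library of mouse 5 or of mouse 6 and without all libraries of either mouse.

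Of 20 blood cell markers, 14 were higher, where 20.3% of all genes were, with a median log2 fold change of 1.90. The B cell gene *Cd79a*, at 6.27, 6.57 and 1.29 RPKM against 0.145 to 1.61 (log2 fold change 2.53 ± 0.46), was higher in mice 4 and 5 than in mouse 6, and so were the T cell genes *Cd3e* and *Cd4*. *Tyrobp*, an adaptor gene of myeloid and natural killer cells, was at 12.7, 24.4 and 6.41 RPKM against 2.57 to 8.71 (1.28 ± 0.30). The macrophage genes *Csf1r*, *Cd68* and *Marco* met neither call. The list summed to 54.3 to 152 RPKM in EpCAM-negative libraries and to 33.7 to 46.8, 35.6 to 54.0 and 30.1 to 48.4 in CD24hi, CD24lo and alveolar libraries. The count of 14 was 9 without the EpCAM-negative library of mouse 4, 6 without that of mouse 5, 7 without the CD24lo library of mouse 5 or without the airway libraries of mouse 4, 8 without all libraries of mouse 4 and 1 without all libraries of mouse 5. It was 9 among genes with CPM above 1.

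Of 6 erythroid genes 5 were called higher, where 20.3% of all genes were. They were the haemoglobin genes *Hba-a1*, *Hba-a2* and *Hbb-bs*, the haem synthesis gene *Alas2* and the anion exchanger gene *Slc4a1*. *Slc4a1*, at 0 to 0.0506 RPKM in epithelial libraries, needed the EpCAM-negative libraries to pass the CPM filter. The count of 5 is thus partly set by the filter. *Hba-a2* was at 737, 191 and 82.7 RPKM in EpCAM-negative cells against 84.5, 25.2 and 21.0 in CD24hi, 24.6, 3.24 and 6.00 in CD24lo and 5.20, 3.83 and 8.76 in alveolar cells (log2 fold change 4.32 ± 0.33, adjusted p = 2.47e-07). The lung suspensions had undergone red cell lysis. Haemoglobin paralogues share sequence, and the division of reads between *Hba-a1* and *Hba-a2* is uncertain.

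Of 11 mesothelial genes tested, 5 were higher, where 20.3% of all genes were, and *Krt19* was lower (median log2 fold change 2.30). The higher count was 3 without the EpCAM-negative library of mouse 6, without the CD24lo library of mouse 4 or of mouse 5, and without all libraries of mouse 5. *Msln*, which encodes mesothelin, was at 7.31, 7.63 and 15.9 RPKM, below the 32.4, 31.6 and 52.0 RPKM of CD24lo cells, and *Upk3b* was at 6.59, 7.21 and 14.6 RPKM beside 5.57, 2.97 and 10.3. *Aldh1a2* and *Nkain4* (4.31 ± 0.22) were higher, as was *Wt1*, a mesothelial factor gene, at 0.507, 0.339 and 0.674 RPKM (2.94 ± 0.45). Of 6 lymphatic markers, *Pdpn* and *Mmrn1* were higher, and in 17 of the 25 alternative fits the count was 0 or 1, while *Prox1* stayed at 0.133, 0.136 and 0.108 RPKM and *Lyve1* at 24.8, 20.9 and 19.1 RPKM beside 19.4, 9.97 and 6.75 in CD24hi cells.

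Of 9 chondrocyte markers tested 8 were higher, among them *Col2a1* at 1.62, 1.26 and 0.681 RPKM against 0 to 0.0423 (log2 fold change 6.30 ± 0.31) and *Comp* at 3.01, 3.19 and 1.53 RPKM against 0 to 0.111 (5.93 ± 0.37), and the count was 4 without any 1 of the EpCAM-negative libraries or all those of mouse 4 or of mouse 6, 2 without all libraries of mouse 5, and 5 among genes with CPM above 1. Members near 0 in every epithelial library, such as *Ucma*, *Acan* and *Col2a1*, passed the CPM filter only through the EpCAM-negative libraries. The count of 8 is thus partly set by the filter and is no test of the list. Of 12 heart muscle genes 6 were higher, where 20.3% of all genes were. They were led in level by *Actc1*, which smooth muscle can also express, at 136, 162 and 156 RPKM against 1.99 to 17.3 (4.81 ± 0.23). *Sln*, 1 of the 6, was at 0 to 0.520 RPKM in epithelial libraries and needed the EpCAM-negative libraries to pass the CPM filter. *Myh6*, the heart muscle myosin gene, was at 0.477, 0.345 and 0.355 RPKM and met neither call, and *Myh7* was lower (-5.29 ± 0.24), as was 1 more gene without the CD24lo library of mouse 5 or with all 18 libraries in the fit. Of 10 Schwann cell and neuronal genes 3 were higher and 3 lower, where 20.3% and 14.9% of all genes were. *Ncam1* was at 0.898, 0.880 and 0.907 RPKM against 0.0153 to 0.115 (3.85 ± 0.27).

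Finally, 1690 genes (9.58%) were higher than at least 1 epithelial population and lower than another, so that EpCAM-negative cells lay between gates. The 5 with the largest opposite differences split by airway or alveolus. *Rbm24*, an RNA-binding protein gene of muscle, was at 1.70, 1.90 and 2.15 RPKM, below CD24hi (log2 fold change -3.24) and CD24lo cells (-1.32) and above alveolar cells (3.25). *Wnt11*, a noncanonical WNT ligand gene, was at 8.05, 7.58 and 8.06 RPKM, below CD24hi cells at 89.9, 69.7 and 67.1 (-3.24) and above alveolar cells at 0.648, 1.000 and 0.637 (3.39). The other three ran in the opposite order, above CD24hi cells and below alveolar cells, with 3.20 and -3.21 for the metalloprotease gene *Adam19*, 3.19 and -3.69 for *Tmem163*, and 4.26 and -3.11 for *Phf24*.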

How the data were processed

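RNA of FACS-sorted cells was sequenced by the authors as 100 bp single-end reads, demultiplexed with bcl2fastq 1.8.4 per the labels, aligned to mm10 with Rsubread and assigned to genes with featureCounts and its RefSeq annotation. The authors deposited raw counts per gene for each library, with Entrez identifiers and gene lengths, and the counts were used as deposited. No row lacked a gene, and 25275 of 27179 genes were given a symbol from the NCBI table of GRCm38.p6, from which positions also come. Strand use in counting is not given in the sources used here, so that overlapping and antisense genes cannot be told apart.

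Genes with CPM above 0.2 in at least 3 of the 12 lung libraries (17648) were fitted in edgeR 4.0.16 (R 4.3.3) with TMM scaling, a term for each population and mouse as a block, by robust quasi-likelihood tests with Benjamini-Hochberg adjustment at 0.05. A gene with almost no reads in epithelial libraries could pass this filter only through EpCAM-negative libraries, which fixes its direction. Script steps were tested on simulated data. Libraries with the same mouse number were taken as those of the same animal. Deviations of EpCAM-negative libraries from their group mean correlated between -0.065 and 0.110 with those of the same mouse. Replicates are separate mice, and no pair of libraries agreed within sampling noise.

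The libraries and the 40 gene lists (694 entries, 675 of them tested) were chosen with earlier results of these data known. Named genes were the 15 higher and 15 lower genes with the largest smallest difference from a gate, among called genes without overlap and with a mean of at least 10 CPM, list members by role, the genes of the sort, and the 5 most opposed genes. Some members of the lists are counted but not reported here by name. Alternatives were no block, limma 3.58.1, DESeq2 1.42.0, other scalings and filters, all 18 libraries, a minimum fold of 1.2, and each library or mouse left out. Promoters are RefSeq sequences of GRCm38.p6, and no genome of mm10 was used here. Read counts limit precision for genes with few reads.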

Additional observations from a re-analysis of the deposited data

How the results depend on the processing

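Every count over all genes stayed within 1.5 times its value in all 25 alternative fits, and no gene called in 1 direction was called in the other. Genes called higher and lower than every population numbered 3539 and 2574 without the replicate block by mouse, 3633 and 2663 with limma voom, 3308 and 2659 with DESeq2, and 3554 and 2678 with relative log expression scaling. With library size alone as scaling there were 3890 and 2161, and the median of all genes moved to 0.059 on the log2 scale. The fits gave 3355 and 2552 with CPM above 1, 3480 and 2516 without a filter, 3780 and 2829 with all 18 libraries, 3202 and 2130 against a fold of 1.2, and 3800 and 2944 without the airway libraries of mouse 4, an alternative chosen after seeing the data. The fit without the block changed 13 of the named genes' calls, all of them weaker.

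Leaving out a library or a mouse gave 2602 to 3703 higher and 1842 to 2804 lower genes, the lowest without mouse 5, and kept 73.4% to 99.7% of calls across the alternatives. Against the epithelial mean the ranges were 4837 to 6412 higher and 4576 to 6085 lower, against CD24hi 5026 to 6457 and 5118 to 6199, against CD24lo 4024 to 5895 and 3944 to 5722, and against alveolar cells 4335 to 6001 and 3673 to 5454. Counts of lists that moved by over 1.5 times were those of endothelial, lymphatic, blood cell, ciliated, chondrocyte, mesothelial, type 1, imprinted, chemokine, complement, PDGF, heart muscle and epithelial identity lists, each with its values in the report, and the cause was not tested. The smaller counts for lists without 1 library rest on fewer samples. Genes with under 1 RPKM rest on few reads.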

Other observations

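Early response and cell cycle genes were measured with the same fit. Of 16 immediate early and heat shock genes, which cell isolation can induce, 5 were higher in EpCAM-negative cells than in every epithelial population, where 20.3% of all genes were (median log2 fold change 0.98). *Egr1*, an early response factor gene, was at 1719, 1818 and 1919 RPKM against 466 to 1021 in epithelial libraries (log2 fold change 1.31 ± 0.10), and *Junb* at 1473, 1493 and 1676 RPKM against 458 to 913 (1.34 ± 0.10). *Fos* met neither call, at 2145, 2139 and 2701 RPKM beside 1879, 2154 and 2303 in CD24hi cells, nor did *Atf3*, at 498, 489 and 601 RPKM beside 1009, 977 and 1074. The heat shock genes *Hspa1a* and *Hspa1b* were highest in the libraries of mouse 6, at 310.3 and 402 RPKM in EpCAM-negative and 368 and 430.4 in alveolar cells, and met neither call.

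Of 18 proliferation genes none was higher and 3 were lower, a share near the 14.9% of all genes (median log2 fold change -0.64). *Top2a*, which encodes the topoisomerase of dividing cells, was at 0.451, 0.557 and 0.570 RPKM against 1.202 to 3.31 (log2 fold change -1.98 ± 0.27), *Cdk1* at 0.165, 0.282 and 0.260 RPKM against 0.656 to 2.08 (-2.50 ± 0.30), and *Cenpf* at 0.0493, 0.0870 and 0.0802 RPKM against 0.133 to 0.506 (-1.80 ± 0.36). *Mki67* met neither call, at 0.358, 0.617 and 0.332 RPKM against 0.205 to 1.61.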
